A study of Saccharomyces cerevisiae with 4 samples.

Results

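Ribosome biogenesis factors and subunits of RNA polymerase I were followed as 1 gene group on 4 two-colour spotted arrays of Saccharomyces cerevisiae. Each array set lpz8 null cells, labelled with Cy5, against wild-type cells, labelled with Cy3. High copper cells were used on 2 arrays and low copper cells on 2, with a repeat mark on 1 array of each pair. The gene lpz8 was read as HAA1, which encodes a relative of the copper-responsive activators Ace1 and Mac1, because the series title names Haa1. The labels give neither the strain background nor the copper concentrations, do not say in which copper the wild-type cells grew, and do not tell whether arrays came from different cultures. No array had the dyes exchanged, so genotype and dye cannot be told apart in any ratio of null to wild type.

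Members were taken by symbol or alias from a list of 47 genes grouped by function. The list was drawn up with earlier results of these data known. Of these, 46 had at least 1 named spot, 62 spots in all, among 5574 genes with a named spot. In all 44 members were measured on all 4 arrays and entered the test with 5137 genes. UTP20 and DBP3 were measured on 3 arrays, and NOP10 matched no named spot and was not analysed here. The members were divided by role into 4 box H/ACA proteins, 3 box C/D proteins, 12 factors of the small subunit processome, 2 factors needed for both subunits, 18 factors of large subunit assembly and 8 subunits of RNA polymerase I.

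Ribosome synthesis begins in the nucleolus, where RNA polymerase I transcribes the long precursor of the ribosomal RNAs. Small nucleolar RNPs modify this precursor: box H/ACA particles isomerise uridines to pseudouridines and box C/D particles methylate riboses. The small subunit processome folds and cuts the part that becomes the small subunit, and helicases, GTPases and other assembly factors build the large subunit. In growing yeast the genes of these factors are known to be transcribed together and to fall together when growth is checked.

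Each value is the log2 ratio of null to wild type after centring on its array's median, and is negative where null cells had less of a transcript. HAA1 itself lay at -6.96 and -4.15 on high copper replicates 1 and 2 and at -7.35 on low copper replicate 2, and had no value on low copper replicate 1. Low copper replicate 1 stood apart from the others: 17.9% of its spots had no value, against 4.79% to 5.82% on the other arrays, and its gene values had an SD of 0.66, against 0.35 to 0.39. On high copper replicate 1 a run of 528 spots held values that belonged 24 spots further on, with a Spearman correlation to the other arrays of -0.014 at the same spot and 0.567 at the offset spot. MAK16, UTP10 and RRP8 each had a spot in that run. The main fit used the values of the run as deposited, so its counts rest in part on displaced values. Channel intensities were not used here, so the signal behind each ratio is unknown, and the number of arrays limits the precision.

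Most members were slightly lower in null cells in both copper conditions, and by a similar amount once arrays were centred. Without centring the member median was -0.22 in high copper and -0.33 in low copper. The median of the 44 members was -0.27 over both conditions, a level 1.21-fold lower, against -0.02 for all 5137 genes. On single arrays the member median was -0.19 and -0.31 on high copper replicates 1 and 2 and -0.26 and -0.16 on low copper replicates 1 and 2. Ratios lay below 0 for 38 and 40 of the 44 members on the high copper arrays and for 37 and 36 on the low copper arrays. All 4 values lay below 0 for 30 of the 44 members, against 21.6% of all genes, and all 4 lay above 0 for 1 member, NHP2, against 20% of all genes. Below 0 on both high copper arrays lay 37 of the 44 members, against 39.6% of all genes, and below 0 on both low copper arrays 31 of the 44, against 36.6%.

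In the limma fit over both conditions, 10 of the 44 members fell and 1 rose at an adjusted p under 0.05. Among all genes tested 11.7% passed, 5.24% lower and 6.44% higher. At an unadjusted p under 0.05 were 28 of the 44 members, against 35.6% of all genes. The members that fell were UTP5, UTP7 and UTP18 of the small subunit processome and NOP2, NOP7, NOP8, NOP15, NOP16, NOG1 and EBP2 of large subunit assembly. NHP2 was the member that rose. UTP18, NOG1 and EBP2 passed at 0.0497 and NOP12 missed at 0.052 (limma), so the count turned on genes next to the threshold. With the displaced run moved back the count was 13 of 44, 12 lower and 1 higher, of 751 genes in all. NOP12 and NOP14 then passed, with adjusted p of 0.0452 and 0.0493 in limma. With the displaced run left out the count was 9 of 46, 7 lower and 2 higher, of 539 genes in all. With the repeat arrays as a block the count was 1, NHP2, of 36 genes in all. The count also shifted widely with the array left out, as it did over all genes. The member median then stayed between -0.30 and -0.24. All p-values reflect array-to-array spread alone, and this spread may be technical.

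**Figure D1:**
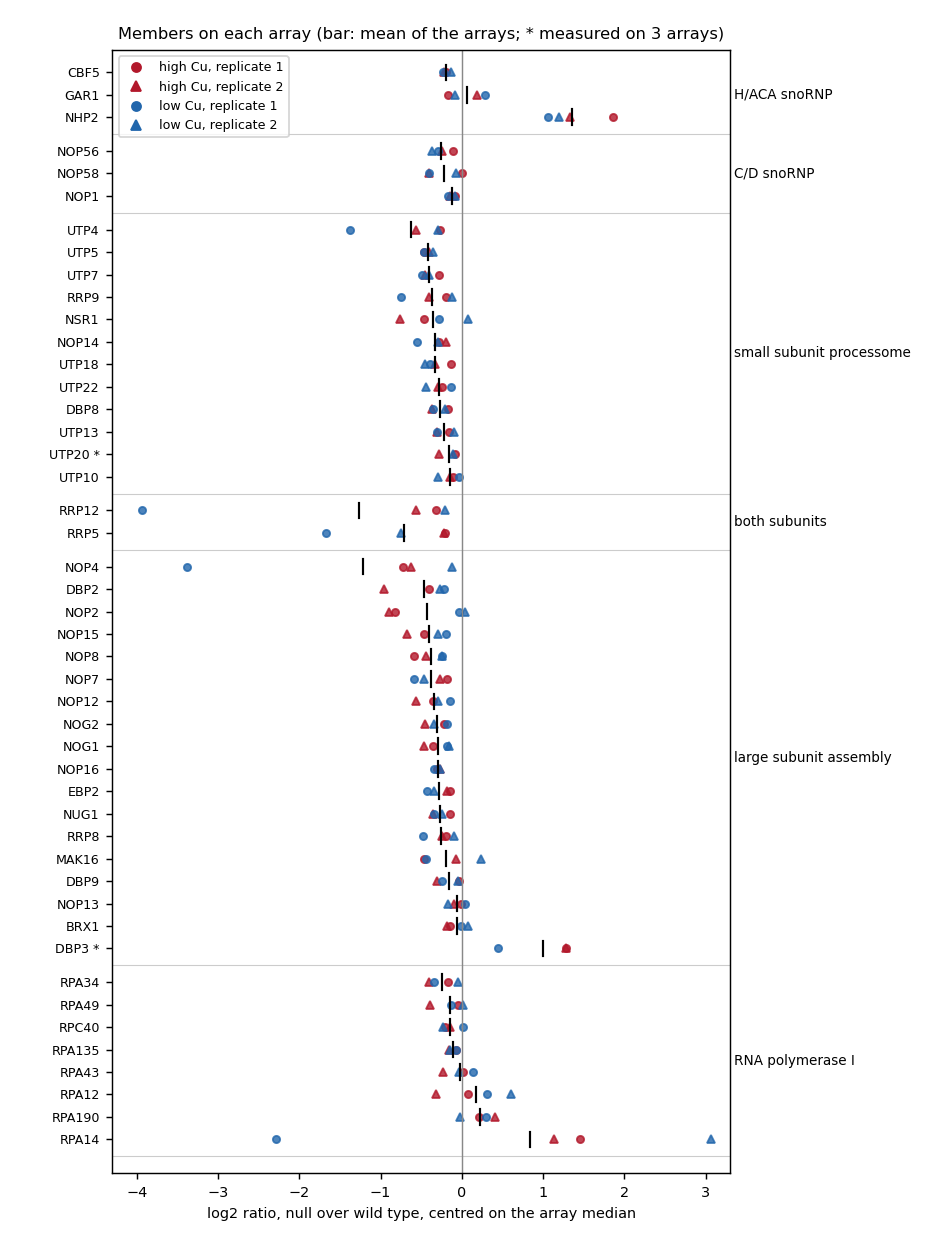
Centred log2 ratios of null over wild type (horizontal axis) of the 46 measured members on each array, grouped by role, with high copper arrays in red, low copper arrays in blue and a black bar at the mean. Most members lie between -0.5 and 0, while NHP2, RPA14 and DBP3 have means above 0.8 and RRP12 and NOP4 have 1 value each below -3.

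The box H/ACA proteins did not share 1 direction. Nhp2, Gar1, Cbf5 and Nop10 form the core of each pseudouridylation particle, with Cbf5 as the catalytic enzyme, known in humans as dyskerin. CBF5 stood at -0.19 and -0.22 on the high copper arrays and at -0.23 and -0.13 on the low copper arrays. The 4 values lay close together and overlapped between conditions, and their mean of -0.19 ± 0.05 (SD, n = 4) had an adjusted p of 0.0885 in limma. GAR1 stood at -0.17 and 0.19 in high copper and at 0.29 and -0.08 in low copper. Its values crossed 0 in both conditions, and the mean was 0.06 ± 0.22 (SD, n = 4) with an adjusted p of 0.706 in limma.

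On the spot measured on all 4 arrays NHP2 stood at 1.86 and 1.33 in high copper and at 1.06 and 1.19 in low copper. Its other spot stood at 1.57 and 1.14 in high copper and at 0.27 on low copper replicate 1, with no value on low copper replicate 2. Both spots were thus high in high copper, and in low copper replicate 1 they differed. By the spot with all 4 values, NHP2 was 2.57-fold higher in null cells over both conditions (1.36 ± 0.35, SD, n = 4), with an adjusted p of 0.0159 in limma. In high copper alone its adjusted p was 0.0304 and in low copper 0.0647. With whatever spots each array measured, the adjusted p was 0.0285 over both conditions and 0.0528 in high copper (limma). The high copper values lay above the low copper values, and the difference of 0.47 had a 95% interval of -0.11 to 1.06 and an adjusted p of 0.377 (limma).

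The spots next to NHP2 had ratios like its own. NHP2 was spotted at 2 places, and on its second spot, the one measured on all 4 arrays, it lay in a run of 6 consecutive spots that were all above 0.4 on both high copper arrays. There the 6 ratios ran between 0.48 and 1.86 on high copper replicate 1, between 1.19 and 1.83 on high copper replicate 2, between -0.01 and 1.77 on low copper replicate 1 and between 0.45 and 2.12 on low copper replicate 2. The first spot lay in a run of 6 spots of the same genes, between 0.96 and 1.57 and between 1.14 and 1.86 on the high copper arrays. Picked for mention once their values were known, the genes beside it were YCX1, UGA4, SHR3, PRR2 and RRI1. UGA4, a permease for gamma-aminobutyrate, stood at 0.95 and 1.83 in high copper and at 1.0 and 1.39 in low copper beside the second NHP2 spot. SHR3, which helps amino acid permeases leave the endoplasmic reticulum, stood at 1.40 and 1.30 in high copper and at 0.17 and 0.70 in low copper. CDC34, the first gene beyond the run, stood at 0.24 and 0.06 in high copper and at -0.15 and 0.07 in low copper. Over the whole array 1.99% of the 8832 spots lay in runs of at least 5 consecutive spots above 0.4 on both high copper arrays. The part of the spot neighbourhood in the NHP2 ratio was not tested.

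**Figure D2:**
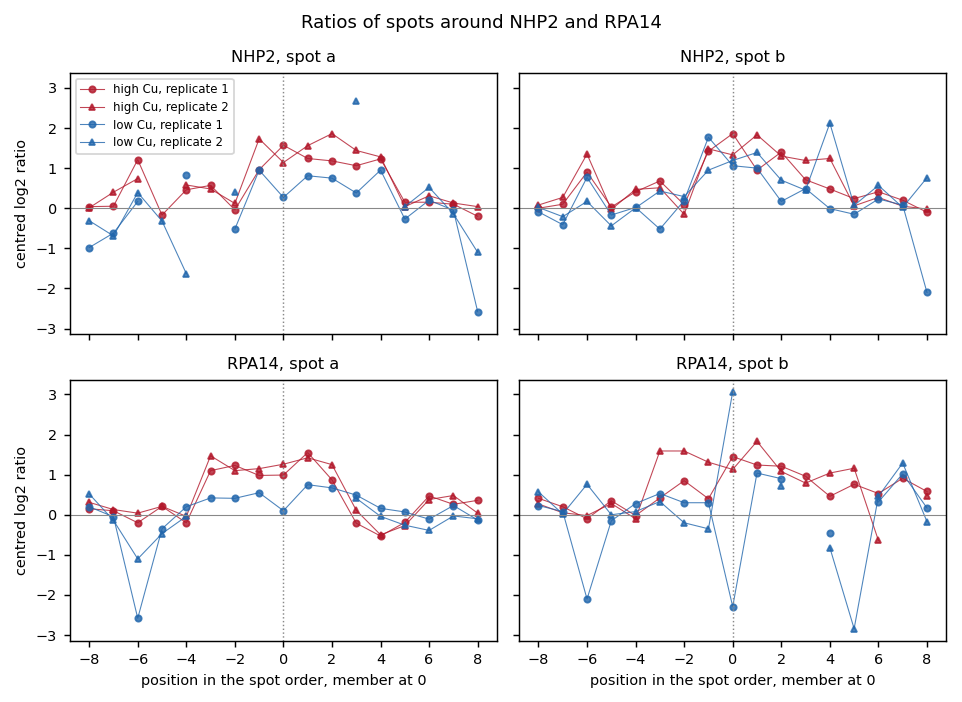
Centred log2 ratios (vertical axis) of the spots around the 2 spots of NHP2 and the 2 spots of RPA14, by position in the spot order with the member at 0, for each array. In each panel the member sits inside a block of neighbouring spots whose high copper ratios lie mostly between 0.4 and 1.9, while most spots outside the blocks lie nearer to 0; spots on both sides of the second RPA14 spot vary widely in low copper.

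The 3 box C/D proteins were lower by small amounts and none passed. NOP1, the methyltransferase known in humans as fibrillarin, stood at -0.08 and -0.15 in high copper and at -0.17 and -0.08 in low copper. NOP56 stood at -0.11 and -0.25 in high copper and at -0.29 and -0.37 in low copper, a mean of -0.26 ± 0.11 (SD, n = 4) with an adjusted p of 0.063 in limma. NOP58, the partner of Nop56 in the particle, stood at 0.00 and -0.41 in high copper and at -0.41 and -0.07 in low copper. NOP56 and NOP1 were below 0 on all 4 arrays, and NOP58 was as low on 1 array of each condition and near 0 on the other.

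In the small subunit processome 3 of 11 tested members fell and 0 rose, against 5.24% and 6.44% of all genes, and the group median was -0.33. UTP5, a subunit of the UTP-A subcomplex that binds the start of the precursor, stood at -0.46 and -0.40 in high copper and at -0.47 and -0.36 in low copper. The 4 values lay close together, with a mean of -0.42 ± 0.05 (SD, n = 4) and an adjusted p of 0.0289 in limma. UTP7 stood at -0.28 and -0.45 in high copper and at -0.49 and -0.40 in low copper, with an adjusted p of 0.0354. UTP18, a subunit of UTP-B, stood at -0.13 and -0.33 in high copper and at -0.39 and -0.45 in low copper. Its high copper values lay just above the low copper values, a difference of 0.19 with a 95% interval of -0.15 to 0.53.

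The other tested processome members also had means below 0. NOP14 stood at -0.28 and -0.20 in high copper and at -0.55 and -0.29 in low copper (adjusted p = 0.0564, limma), and DBP8, a helicase of small subunit synthesis, at -0.17 and -0.37 in high copper and at -0.35 and -0.21 in low copper (adjusted p = 0.068). UTP22, UTP13 and UTP10 had means of -0.28, -0.22 and -0.14, and RRP9, a protein of the U3 particle, had a mean of -0.37 ± 0.28 (SD, n = 4). NSR1, which resembles nucleolin of animals, stood at -0.47 and -0.76 in high copper and at -0.28 and 0.07 in low copper, with no overlap between conditions. UTP4 stood at -0.27 and -0.57 in high copper and at -1.38 and -0.29 in low copper, below 0 on all 4 arrays. The size of its mean of -0.63 rested on low copper replicate 1, and without that array it was -0.36. UTP20, measured on 3 arrays, stood at -0.09 and -0.28 in high copper and at -0.11 on low copper replicate 2 on one spot. Its other spot stood at 0.34 on high copper replicate 2 and at 0.09 on low copper replicate 2, so the spots differed in sign. UTP10 had a second spot in the displaced run, which did not enter the test.

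The subcomplexes of the processome were chosen for description after values had been seen. All 6 tested genes of UTP-B, which are UTP6, UTP13, UTP18, UTP21, PWP2 and DIP2, were below 0 on all 4 arrays, with a median of -0.29 over both conditions. UTP6 stood lowest of them, at -0.59 and -0.77 in high copper and at -0.20 and -0.28 in low copper (adjusted p = 0.0297, limma). Of the 6 tested genes of UTP-A, 4 were below 0 on all arrays. UTP9 was among them with a mean of -0.34 ± 0.15 (SD, n = 4, adjusted p = 0.0483 in limma), while NAN1 stood at 0.12 and 0.13 in high copper and at -0.64 and -0.25 in low copper. UTP22 and its partner RRP7 had means of -0.28 and 0.00.

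Of the 17 tested members of large subunit assembly, 7 fell and 0 rose, against 5.24% and 6.44% of all genes, and the median was -0.29. NOP2, a methyltransferase of the large ribosomal RNA, stood at -0.82 and -0.89 in high copper and at -0.04 and 0.04 in low copper. It was low in high copper and level in low copper, with 0.78 between the nearest values of the conditions. Its mean had an adjusted p of 0.0283 over both conditions, and of 0.0293 in high copper and 0.994 in low copper (limma). The difference of -0.85 between high and low copper had a 95% interval of -1.15 to -0.56, not adjusted for the number of genes, and an adjusted p of 0.224 in limma. NOP2 had 1 spot, and its 6 nearest spots had a median of -0.02 and 0.15 on the high copper arrays and of 0.21 and 0.16 on the low copper arrays.

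NOP15 and NOP8 were also lower in high copper. NOP15, an RNA-binding protein of the early large subunit, stood at -0.46 and -0.68 in high copper and at -0.20 and -0.29 in low copper, with an adjusted p of 0.0383 over both conditions (limma). Its 6 nearest spots had medians of -0.30 and -0.51 in high copper and of 0.11 and -0.20 in low copper, and DBP2 was spotted beside it; the part of this neighbourhood was not tested. NOP8 stood at -0.59 and -0.44 in high copper and at -0.24 and -0.25 in low copper (adjusted p = 0.0364). DBP2, a helicase that also acts in messenger RNA turnover, stood at -0.40 and -0.96 in high copper and at -0.22 and -0.27 in low copper, and did not pass (adjusted p = 0.0663). None of the 3 differences between conditions passed, with adjusted p between 0.347 and 0.407 in limma.

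NOP7 and EBP2 had the opposite order of conditions. NOP7, known in vertebrates as pescadillo, stood at -0.18 and -0.27 in high copper and at -0.59 and -0.46 in low copper, with an adjusted p of 0.0368 over both conditions (limma). EBP2 stood at -0.15 and -0.18 in high copper and at -0.43 and -0.34 in low copper (adjusted p = 0.0497). The differences of 0.31 and 0.22 had 95% intervals of -0.01 to 0.62 and of -0.07 to 0.51. ERB1 and YTM1, the partners of Nop7 in its complex, had means of -0.30 ± 0.10 (adjusted p = 0.0483, limma) and of -0.10 ± 0.08 (adjusted p = 0.296, SD, n = 4 each). NOP16 stood at -0.30 and -0.27 in high copper and -0.34 and -0.27 in low copper (adjusted p = 0.0445, limma), on the spot with all 4 values. Its other spot stood at -0.08 on high copper replicate 1 and at -0.76 on low copper replicate 2, and with whatever spots each array measured the adjusted p was 0.0509.

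The 3 nucleolar GTPases of large subunit maturation had nearly equal ratios. NOG1 stood at -0.35 and -0.46 in high copper and at -0.18 and -0.16 in low copper, with an adjusted p of 0.0497 in limma. NOG2 stood at -0.22 and -0.45 in high copper and at -0.18 and -0.34 in low copper, with an adjusted p of 0.0658. NUG1 stood at -0.14 and -0.36 in high copper and at -0.34 and -0.24 in low copper, with an adjusted p of 0.0681. All 3 were below 0 on every array, with means of -0.29, -0.30 and -0.27. A second NOG1 spot, without a value on low copper replicate 1, stood at -4.01 and -1.82 in high copper and at -2.26 on low copper replicate 2, far from the first.

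DBP3, a helicase for cleavage in the first internal spacer of the precursor, went against its group. It stood at 1.28 and 1.28 in high copper and at 0.44 on low copper replicate 1, and had no value on low copper replicate 2. Its mean was 1.0 ± 0.48 (SD, n = 3). When genes with 3 values were also fitted, with equal weight to both conditions, it was 1.82-fold higher in null cells with an adjusted p of 0.0345 in limma. That fit called fewer members, 6 lower and 2 higher of 46, among 469 genes in all. There UTP18, NOG1, EBP2 and NOP16 missed the threshold (adjusted p between 0.0524 and 0.0581, limma). Unlike NHP2, DBP3 stood alone: its 6 nearest spots had medians of 0.15 and 0.25 on the high copper arrays. It had only 1 spot.

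NOP12, an RNA-binding protein of large subunit assembly, stood at -0.35 and -0.56 in high copper and at -0.15 and -0.29 in low copper. This was the spot with all 4 values, and it lay just outside the threshold. The other NOP12 spot had the opposite sign, at 0.91 and 0.17 in high copper and 0.59 on low copper replicate 2. With whatever spots each array measured, the mean over both conditions was 0.02. NOP4 stood at -0.72 and -0.62 in high copper and at -3.38 and -0.12 in low copper. The size of its mean of -1.21 ± 1.47 (SD, n = 4) was set by low copper replicate 1, and without that array it was -0.40. The remaining tested members lay closer to 0, with means of -0.26 for RRP8, a methyltransferase, -0.19 for MAK16, -0.16 for the helicase DBP9 and -0.06 for NOP13 and BRX1. With the displaced run of high copper replicate 1 moved back into place, MAK16 stood at -0.13 and RRP8 at -0.30 over both conditions, and neither passed (adjusted p of 0.489 and 0.0545 in limma).

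Both factors that serve both subunits were lower in low than in high copper by their means. RRP5, a large RNA-binding protein needed for early cuts in the precursor, stood at -0.21 and -0.22 in high copper and at -1.67 and -0.75 in low copper. Its 2 spots, far apart on the array, had means of -0.75 and -0.68. The difference of 1.0 between high and low copper had a 95% interval of 0.09 to 1.90 and an adjusted p of 0.302 in limma. RRP12, which acts in export of both subunits, stood at -0.32 and -0.56 in high copper and at -3.94 and -0.21 in low copper, so the low copper values lay on both sides of the high copper values. The size of its mean of -1.26 ± 1.79 (SD, n = 4) was set by low copper replicate 1, and without that array it was -0.33. Its second spot stood at 1.01 and 0.37 in high copper and at 0.92 on low copper replicate 2, opposite to the first.

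As a group the subunits of RNA polymerase I had a median near that of the arrays. Their means lay between -0.24 and 0.22 except for RPA14, whose low copper values were far apart. Over both conditions 0 of 8 passed in limma, against 11.7% of all genes. An unadjusted p under 0.05 was found for 2 of the 8, against 35.6% of all genes. The median of the subunits was -0.07, against -0.30 for the 33 tested members outside this enzyme and the box H/ACA group. RPA190 and RPA135 form the catalytic centre. RPA135, which lies near HAA1 on chromosome XVI, stood at -0.07 and -0.16 in high copper and at -0.07 and -0.15 in low copper. RPA190 stood at 0.21 and 0.41 in high copper and at 0.30 and -0.02 in low copper, the mean of spots that disagreed, with means of 0.64 and -0.18. The dimer of RPA49 and RPA34 acts in initiation and elongation. RPA49 stood at -0.05 and -0.39 in high copper and at -0.13 and 0.02 in low copper. RPA34 stood at -0.17 and -0.41 in high copper and at -0.34 and -0.05 in low copper. RPC40, which RNA polymerase III shares, stood at -0.21 and -0.14 in high copper and at 0.01 and -0.23 in low copper. RPA49, RPA34 and RPC40 had means of -0.14, -0.24 and -0.14, and their conditions overlapped.

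RPA12, the subunit for RNA cleavage, was lower in high than in low copper without passing. It stood at 0.08 and -0.32 in high copper and at 0.31 and 0.60 in low copper, a difference of -0.57 with a 95% interval of -1.11 to -0.03 and an adjusted p of 0.311 in limma. RPA43, of the stalk, stood at 0.02 and -0.23 in high copper and at 0.14 and -0.04 in low copper. Its stalk partner RPA14 stood at 1.45 and 1.13 in high copper and at -2.29 and 3.07 in low copper, values that no mean describes. The first RPA14 spot, at 0.99 and 1.26 in high copper and 0.10 on low copper replicate 1, lay in a run of 6 spots with ratios between 0.87 and 1.55 and between 1.10 and 1.47 on the high copper arrays. HOM2, an enzyme of threonine and methionine synthesis chosen for naming after its values were seen, lay next to it at 1.55 and 1.42 in high copper and 0.75 on low copper replicate 1. The part of this neighbourhood in the RPA14 ratio was not tested.

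**Figure D3:**
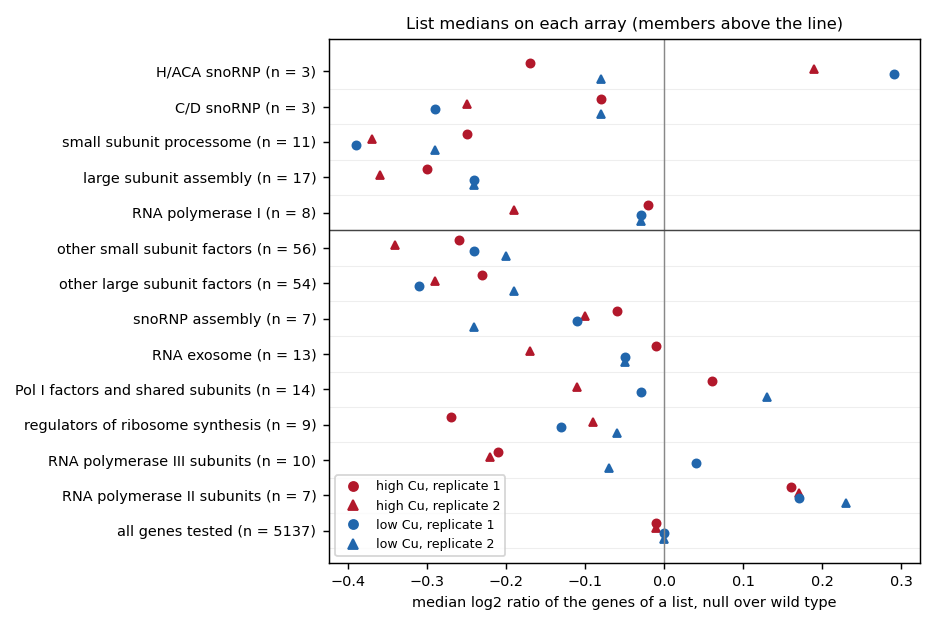
Median centred log2 ratio (horizontal axis) of the genes of each role group and of further lists on each array, high copper in red and low copper in blue, with the number of tested genes in brackets; the group of 2 factors needed for both subunits is left out. Both subunit assembly groups and both wider assembly lists lie between -0.39 and -0.19 on all 4 arrays, RNA polymerase I between -0.19 and -0.02, and RNA polymerase II subunits between 0.16 and 0.23.

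High and low copper were then compared directly, the question being whether copper altered the ratio of null over wild type. In limma 0 of 44 members and 0 of 5137 genes passed for high minus low copper, and 4 of 44 members had an unadjusted p under 0.05, against 15.4% of all genes. The median difference of the members was 0.00. The values of the conditions did not overlap for 16 of the 44 members, 9 with high copper lower and 7 with high copper higher, against 52.2% of all genes, 27% and 25.2%. Of the 9, 7 were among the 17 tested members of large subunit assembly: NOP2, NOP8, NOP12, NOP15, DBP2, NOG1 and BRX1. The others were NSR1 and RPA12, and those with high copper higher were NHP2, NOP56, UTP18, NOP14, RRP5, NOP7 and EBP2. The gap between conditions was 0.78 for NOP2 and 0.53 for RRP5 and at most 0.23 for the rest. Outside the members, high copper lay lower without overlap for 13 of 54 further large subunit factors, against the 27% of all genes. For further small subunit factors it did so in 25 of 56. With 1 array left out, the median difference of the members stayed between -0.08 and 0.05. The number that passed rose without either low copper array, among the members and among all genes.

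Within each condition few members passed. In high copper 2 of 44 passed, NOP2 lower and NHP2 higher, against 2.57% of all genes, 1.5% lower and 1.07% higher. At an unadjusted p under 0.05 were 14 members, against 24.6% of all genes (limma). The number past the adjusted threshold shifted widely with the array left out, among the members and among all genes. In low copper 0 of 44 passed, against 0.662% of all genes, 0.428% lower and 0.234% higher, while 15 of 44 had an unadjusted p under 0.05, against 30.5% of all genes (limma). The low copper number also shifted with the array left out, among all genes too. With all arrays the member median was -0.23 in both high and low copper, against -0.01 for all genes in each. Without low copper replicate 1 the low copper median was -0.16, and without low copper replicate 2 it was -0.26. The high copper median was -0.31 without high copper replicate 1 and -0.19 without high copper replicate 2. Across 42 members without NHP2 and RPA14, the Spearman correlation was 0.56 between the high copper arrays and 0.40 between the low copper arrays, and 0.10 to 0.39 across conditions. Over all genes it was 0.70 between the high copper arrays, 0.59 between the low copper arrays and 0.31 to 0.41 across conditions. It is a description across genes that share arrays.

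**Figure D4:**
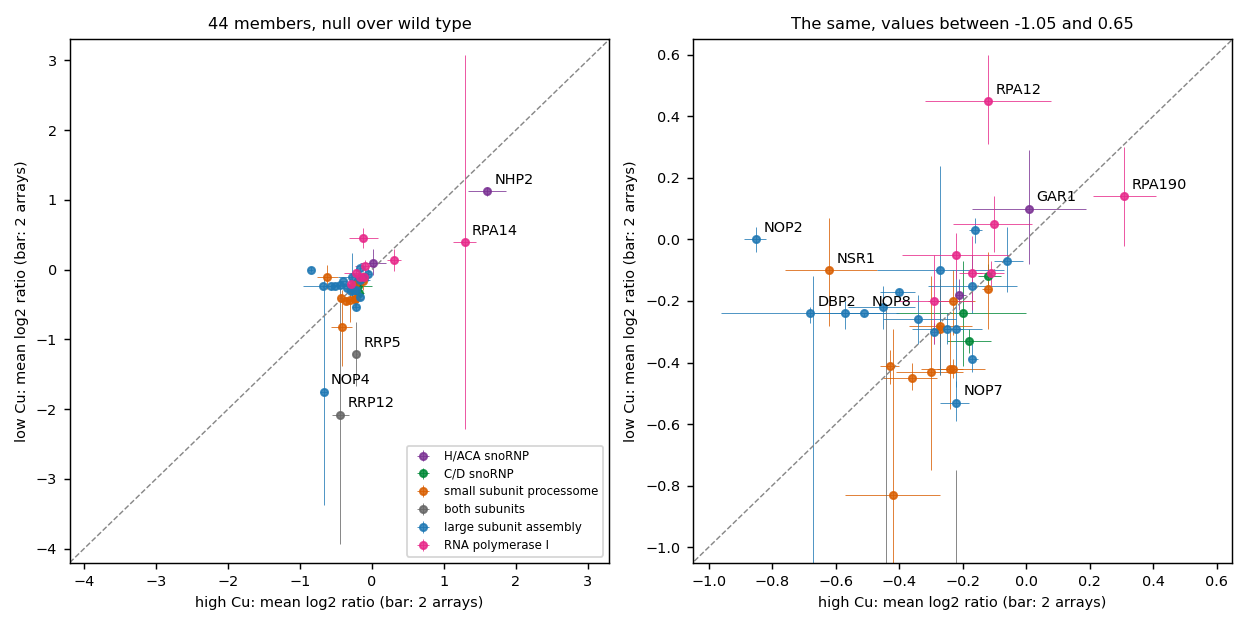
Mean log2 ratio of null over wild type in high copper (horizontal axis) against low copper (vertical axis) for the 44 tested members, coloured by role, with bars spanning the 2 arrays and a dashed line of equality; the right panel enlarges the centre. NOP2 lies left of the line near 0 in low copper, and RRP5, RRP12 and NOP4 lie below it with long bars toward low copper replicate 1.

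The rest of the pathway was read from lists of assembly factors outside the members. Of 56 tested further small subunit factors 17 fell and 1 rose, with a median of -0.27. Of 54 further large subunit factors 14 fell and 0 rose, with a median of -0.26. Among all genes 5.24% fell and 6.44% rose. The 110 genes of both lists had a median 1.2-fold lower in null cells, and 71 of them were below 0 on all 4 arrays, against 21.6% of all genes. The named genes are the 2 with the lowest and the 2 with the highest mean of a list. DHR2, a helicase of the small subunit, fell furthest of its list that passed, at -0.79 and -0.73 in high copper and at -0.67 and -0.48 in low copper (adjusted p = 0.0204, limma). FAL1, another helicase, stood at -0.50 and -0.38 in high copper and at -0.94 and -0.49 in low copper (adjusted p = 0.0393). SYO1, which brings ribosomal proteins into the nucleus, had a mean of -0.55 ± 0.21 (SD, n = 4, adjusted p = 0.0443). NOP6 was the gene that rose, at 0.75 and 1.97 in high copper and at 1.09 and 1.29 in low copper (adjusted p = 0.042), and FCF1, NSA2 and MRT4 stood between 0.11 and 0.15. MAK21 stood at -0.28 and -0.15 in high copper and at -1.74 and -0.30 in low copper.

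Other lists of the pathway had medians nearer to 0. Their counts stand beside 5.24% lower and 6.44% higher among all genes, and the lists are small. Of 7 snoRNP assembly factors 2 fell, NAF1, which assembles box H/ACA particles (-0.49 ± 0.16, SD, n = 4), and RSA1, which acts for box C/D particles (-0.35 ± 0.05), with adjusted p of 0.0368 and 0.0361 in limma. RVB1 and HIT1 of this list stood at 0.10 and 0.00. Of 13 subunits and cofactors of the RNA exosome 2 fell and 0 rose, with a median of -0.06. RRP42 was 1 of them and resembled NOP2, at -0.65 and -0.68 in high copper and at 0.07 and -0.20 in low copper (adjusted p = 0.0483). MTR4, a helicase that feeds the exosome, had a mean of -0.34 ± 0.22 (SD, n = 4, adjusted p = 0.101). RRP46 had a mean of 0.78 ± 0.48 and SKI6 of 0.31 ± 0.41 (SD, n = 4 each), and neither passed.

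Of 14 tested factors of RNA polymerase I and subunits shared between polymerases 1 fell and 1 rose. Among all genes 5.24% fell and 6.44% rose, the shares to set beside each polymerase list here. RRN11, of the core factor that recruits the enzyme to ribosomal DNA, stood at -0.79 and -1.03 in high copper and at -1.07 and -0.43 in low copper (adjusted p = 0.0368, limma). RPB8, shared by all 3 polymerases, stood at 0.26 and 0.30 in high copper and at 0.48 and 0.28 in low copper (adjusted p = 0.0483). HMO1, a DNA-binding protein of ribosomal DNA, had a mean of 0.26 ± 0.14 (SD, n = 4) and RRN6 of -0.19 ± 0.58. Of 7 RNA polymerase II subunits 1 rose, RPB7 (0.33 ± 0.18, SD, n = 4, adjusted p = 0.0383), with a list median of 0.21. Of 10 RNA polymerase III subunits 1 fell, RPC82 (-0.40 ± 0.38, adjusted p = 0.0467), with a list median of -0.13. RPB2, RPB9 and RPB11 of RNA polymerase II had means of -0.14, 0.10 and 0.31, and RPC31, RPC34 and RPC25 of RNA polymerase III of -0.28, 0.13 and 0.05. These genes did not pass, and the difference between the enzymes was not tested.

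Regulators of ribosome synthesis had 0 of 9 genes past the threshold over both conditions (limma), against 11.7% of all genes. The median of the 9 was -0.19. IFH1, a coactivator of ribosomal protein genes that also binds a complex with Utp22 and Rrp7, stood at -0.92 and -0.67 in high copper and at -2.95 and -1.0 in low copper. It was below 0 on all 4 arrays, with an adjusted p of 0.0716. FHL1, its partner on promoters, stood at -0.20 and 0.00 in high copper and at -1.80 and -0.50 in low copper. STB3, a repressor that binds promoters of biogenesis genes, and the kinase SCH9 had means of 0.04 and -0.01.

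Where a member had more than 1 spot, its spots were compared with each other. Whether spots of a gene carried the same sequence was not checked, so their difference is not a measure of error alone. Of 16 such members the spot means differed by under 0.3 in 8 and by over 1 in 2, RRP12 and NOG1. NOP1, RRP5, NOP14 and RRP8 agreed within 0.1, while NOP12 stood at -0.40 on one spot and at 0.56 on the other over the arrays both measured. Where only 1 of the spots was measured on all 4 arrays, as for NHP2, RRP12, NOP12, NOP16 and NOG1, that spot alone entered the test.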

How the data were processed

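RNA of lpz8 null and wild-type yeast was compared on 4 arrays, 2 per copper condition. The deposited table held 1 log ratio for each of 8832 spots and each array. Normalization by the authors, log base and direction are, beyond the dyes, not given in the sources used here. Deposited values were read as log2 ratios, an inference from the values, and as Cy5 over Cy3, from the dyes and from the low HAA1 ratio. The platform annotation named 1 gene for 6956 spots, several for 0 and none for 1876, and all 6956 matched the RefSeq gene table of R64, used for names only. Coordinates are left out, as no build is stated for the array.

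From each array its median over 6912 spots with 4 values was subtracted, which was 0.007 and 0.014 for high copper replicates 1 and 2 and -0.157 and -0.04 for low copper replicates 1 and 2. Spots of a gene measured on all 4 arrays were averaged. A linear model with a mean per copper condition was fitted to 5137 genes with limma 3.58.1 in R 4.3.3 (lmFit, eBayes; 2 residual and 2.22 prior degrees of freedom). Contrasts were both conditions against 0, each against 0, and high minus low, with Benjamini-Hochberg adjustment over all genes and a threshold of 0.05. Replicates were numbered in record order; high copper replicate 1 and low copper replicate 2 were marked as repeats. The fit was tested on simulated data with 200 changed genes. It recovered 40 of 79 genes changed by 0.5, 47 of 59 by 1 and 57 of 62 by 2, with 3 false calls. The simulation gave all arrays equal spread, unlike low copper replicate 1, and held no changes smaller than 0.5, where most members lie. Alternatives left arrays uncentred, scaled them, kept spots apart, allowed genes with 3 values, blocked on the repeat mark, moved back or left out the displaced run, used a robust prior or left out 1 array.

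The members, lists, tests and alternatives were chosen with earlier results of these data known. Genes named were all members, the 2 lowest and 2 highest means of each wider list, and genes said to be chosen after their values were seen. Complexes were picked after values had been seen.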

Additional observations from a re-analysis of the deposited data

How the results depend on the processing

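The member medians kept their sign over both conditions and within each condition under all alternatives run, and over both conditions they stayed between -0.32 and -0.24. Centring set the level of low copper: without it the low copper median was -0.33 and the median difference of high minus low copper 0.11. Leaving out 1 array gave medians between -0.31 and -0.19 in high copper. Counts of members past the threshold varied far more. Without 1 array they ran between 0 and 30 over both conditions, between 0 and 14 in high copper, between 0 and 13 in low copper and between 0 and 6 for high minus low copper. In these fits only the condition that kept 2 arrays gave an estimate of the spread, which was assumed to hold for the lone array too. Without either high copper array 0 of all 5137 genes passed over both conditions, against 1940 without low copper replicate 2. With the displaced run moved back 13 members passed over both conditions and 2 in high copper, of 751 and 201 genes in all. For high minus low copper 0 members and 2 genes in all then passed. With the repeat arrays as a block 1 member passed over both conditions and 0 in high copper, of 36 and 0 genes in all. The deviations of the arrays marked as repeats correlated at 0.09 over all genes, and the main fit did not take the mark as a pairing. That value cannot tell whether these arrays shared a culture or a batch. Averaging whatever spots each array measured, an alternative chosen after seeing the data, gave 7 members over both conditions and 1 in high copper. Scaling the arrays to equal spread gave 6 in high copper, and 894 genes in all over both conditions. The cause of these shifts was not tested. Among single members, 502 of 598 alternative values kept direction and side of the threshold, 57 lost a call, 33 gained one and 6 changed sign. The sign changes were in GAR1 (-0.04 to 0.15 without 1 array), RPA43 (-0.09 to 0.04), RPA14 (-0.50 to 2.18) and NOP12 (0.02 with whatever spots each array measured). NHP2 lost its call over both conditions only without either high copper array, where it stood at 1.23 and 1.5. Signal over background was unknown, so no limit from dim spots could be set.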
